A study of Mus musculus with 6 samples.

Results

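The 33 genes described here encode components, regulators and receptors of the complement system, and they were measured in the livers of mice whose fathers had received nicotine or saline. They were taken by gene symbol from a list, all 33 were among the 54532 genes of the deposited tables, and 31 averaged 1 RPKM or more across the 6 libraries and entered the test. RPKM is a read count scaled to gene length and to the reads of the library. The animals were male C57BL/6J mice, adult and 8 weeks old, with 3 livers in the paternal saline group and 3 in the paternal nicotine group, and the labels give the offspring themselves no treatment. The sources used here do not give the numbers of fathers and litters, so the p-values reflect only how these 6 animals vary.

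Complement is a cascade of plasma proteins that marks surfaces with fragments of C3 and C4 and can end in a pore in the target membrane. It is started by antibody or pattern recognition through C1q (classical pathway), by sugar-binding mannose-binding lectins and ficolins (lectin pathway), or by slow spontaneous turnover of C3 amplified by factor B (alternative pathway). Hepatocytes make most of the plasma components, while macrophages such as the Kupffer cells of the liver are known as the main makers of C1q. Several components, C3 and factor B among them, are known acute phase proteins of the liver. In bulk tissue, a change in the number of cells of a type and a change in RNA per cell cannot be told apart.

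Of the 31 tested complement genes 5 rose and 1 fell with paternal nicotine. When any 1 of the 6 libraries was left out, 2 to 3 rose and 1 fell. C3, the central component, rose: its mean was 1110.4 ± 129.8 RPKM with paternal saline and 3205 ± 392 RPKM with paternal nicotine (SD, n = 3 in each). The regulator genes Serping1 and C4bp, the alternative pathway gene Cfb and the low-level classical pathway gene C4a also rose. C8g, a subunit gene of the membrane attack complex, fell from 103 ± 6.07 to 63.0 ± 2.75 RPKM. The 3 C1q chain genes, made by macrophages, varied more between animals of a group than between the groups.

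Genes were tested with limma on log2(RPKM + 1), all 8773 that averaged 1 RPKM or more together, and Benjamini-Hochberg adjusted p-values were held to 0.05. Of all tested genes 9.28% passed, 3.89% higher and 5.39% lower, against 5 higher and 1 lower of 31 complement genes. The groups did not overlap in 17 of the 31 genes, 12 with paternal nicotine higher and 5 with it lower, and in 33.6% of all tested genes. The median log2 fold change was 0.22 over the 31 genes and -0.02 over all tested genes. An unadjusted p under 0.05 was found for 14 of the 31 genes and for 2305 of all 8773 tested genes. C4a, Cfhr2 and C5ar1 had a mean under 1 RPKM in 1 group and passed the filter through the other. Without them, 4 of 28 genes rose and 1 fell.

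**Figure D1:**
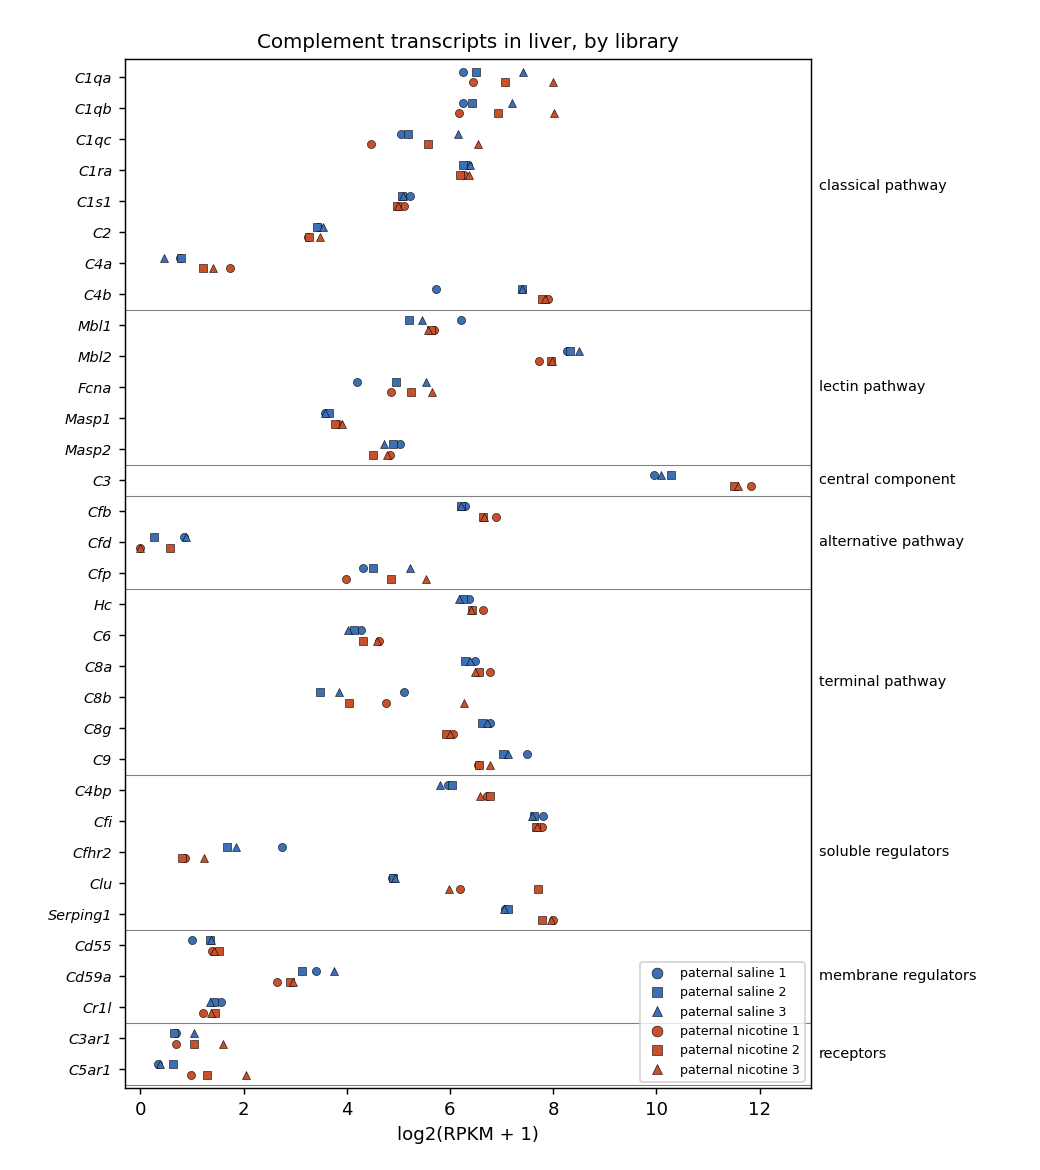
Level of each of the 33 complement genes in each of the 6 libraries, as log2(RPKM + 1), ordered by role. Blue marks paternal saline and red paternal nicotine, and the symbol shape gives the replicate number. The C3 points of the groups lie apart, at 989.9 to 1248 against 2901 to 3648 RPKM, and the C1q points of the groups overlap.

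Some measurements of the libraries touch these genes. All 8 hepatocyte markers had a mean above 1 RPKM, and they summed to 26999 to 34024 RPKM with paternal saline and 15304 to 15916 RPKM with paternal nicotine. Most of that sum was Alb, at 19914 to 28635 against 11098 to 12486 RPKM. Of the 8 markers Alb and Ass1 fell and the other 6 did not pass. An unadjusted p under 0.05 was found for 4 of the 8, against 2305 of all 8773 tested genes. Ttr (2256 ± 671 to 586 ± 395 RPKM, limma adjusted p = 0.0563) and Cps1 (378 ± 70.0 to 243 ± 30.5 RPKM, limma adjusted p = 0.0796) were also lower without overlap of the groups. In Apoa1, Apob, Cyp2e1 and Tat the groups overlapped. The mitochondrial share of the RPKM total was 18.6% to 19.2% with paternal saline and 15.0% to 17.2% with paternal nicotine. Of 11 Kupffer cell and macrophage markers tested none passed in limma (1 had an unadjusted p under 0.05), and the sum of the list was highest in paternal nicotine replicate 3. The 10 neutrophil markers summed to 5.94 to 7.05 RPKM with paternal saline and 26.1 to 85.9 RPKM with paternal nicotine. Of 4 cholangiocyte markers tested 2 rose, and the list summed to 8.68 to 11.4 RPKM with paternal saline and 20.1 to 21 RPKM with paternal nicotine. Pancreatic acinar markers summed to 2780 RPKM in paternal nicotine replicate 2 and to at most 5.27 RPKM in the other 5 libraries. The part of these differences in the complement results was not tested, and results that change without 1 library are given below with and without it.

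Promoter sequences of RefSeq, on GRCm38.p6, were matched by symbol for 24 of the 33 genes. They are shown for the 3 genes among the 6 that passed and have one, C3, C4bp and C8g, as 250 bases before and 50 bases after the start site, 5′ to 3′ on the strand of the gene. All 3 lie on the minus strand: C3 at chr17:57228087-57228386, C4bp at chr1:130661569-130661868 and C8g at chr2:25501670-25501969. Capitals mark matches to the motif letters given below.
C3: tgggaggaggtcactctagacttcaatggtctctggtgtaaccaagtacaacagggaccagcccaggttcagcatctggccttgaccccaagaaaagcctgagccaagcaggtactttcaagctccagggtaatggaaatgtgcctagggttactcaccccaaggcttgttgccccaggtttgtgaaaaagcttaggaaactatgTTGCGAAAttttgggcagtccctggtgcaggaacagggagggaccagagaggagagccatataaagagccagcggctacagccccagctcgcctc
C4bp: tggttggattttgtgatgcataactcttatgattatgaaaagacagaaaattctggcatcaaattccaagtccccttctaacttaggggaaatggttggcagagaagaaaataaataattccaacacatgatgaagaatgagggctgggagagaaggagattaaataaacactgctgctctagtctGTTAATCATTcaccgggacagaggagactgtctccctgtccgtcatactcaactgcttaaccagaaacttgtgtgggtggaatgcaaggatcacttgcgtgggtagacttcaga
C8g: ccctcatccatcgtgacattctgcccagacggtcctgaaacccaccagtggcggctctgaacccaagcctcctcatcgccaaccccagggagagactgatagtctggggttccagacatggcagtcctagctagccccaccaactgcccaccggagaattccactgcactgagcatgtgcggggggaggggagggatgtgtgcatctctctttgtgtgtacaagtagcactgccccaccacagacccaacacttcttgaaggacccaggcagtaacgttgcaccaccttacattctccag

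The motifs searched on both strands were TTCNNNGAA (STAT factors), TTGCNNAA (C/EBP factors), GGG, any 2 bases, then TTTCC (NF-kappaB), and GTTAAT, any base, then ATT (HNF1). No motif overlaps another in the windows shown. The C3 window held a C/EBP match that begins 45 bases before the start site, and the C4bp window held an HNF1 match that begins 64 bases before it. Neither C8g window, of which the outer is printed, held any of the 4 motifs. Among the 24 genes the C/EBP letters occurred in C1ra, C1s1, C3 and C9, and in 10.8% of all promoters. The STAT letters occurred in C1ra, C8a, Cfhr2 and Masp2, and in 8.30% of all promoters. The HNF1 letters occurred in C4bp, Cfhr2 and Hc, and in 0.399% of all promoters, while the NF-kappaB letters occurred in C3ar1 and in 1.63% of all promoters. In C1ra and Cfhr2 the STAT match lies behind the start site. These are matches of letters in a short window and show no binding.

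C3 stands where all 3 pathways meet, and its cleavage yields the tag C3b and the peptide C3a. C3 (ENSMUSG00000024164, chromosome 17, 57203970 to 57228136) was at 989.9, 1248 and 1094 RPKM with paternal saline and at 3648, 2901 and 3066 RPKM with paternal nicotine. Every paternal nicotine liver was above every paternal saline liver, and the ratio of the group means was 2.89. The log2 fold change was 1.53 (SE 0.13, limma adjusted p = 0.00501), and it passed in all 16 alternative analyses. The 33 genes together summed to 2865 to 3225 RPKM with paternal saline and 5148 to 5725 RPKM with paternal nicotine. C3 alone held 33.9% to 40.1% of that sum in paternal saline and 54.5% to 63.7% in paternal nicotine. The sum and the share depend on the transcript lengths behind the RPKM values, given below, so they are read only across libraries.

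Of the 3 alternative pathway genes besides C3, Cfb rose, Cfp did not pass and Cfd was too low to test. Cfb (ENSMUSG00000090231, chromosome 17, 34856374 to 34862518) encodes factor B, the protease of the alternative C3 convertase. It was at 73.1 to 77 RPKM with paternal saline and at 117, 98.9 and 101 RPKM with paternal nicotine. No library of one group reached the other, and the log2 fold change was 0.50 (SE 0.09, limma adjusted p = 0.0281). The call did not hold when any 1 of the 6 libraries was left out, with limma adjusted p between 0.051 and 0.0877. It was also lost with the replicate number as a block (limma adjusted p = 0.0656) and with no filter on low values (0.0808). C2, the homologous protease gene of the classical and lectin pathways, lies 85 bases from Cfb. It was at 9.67 to 10.6 RPKM with paternal saline and 8.53 to 10.1 RPKM with paternal nicotine, and it did not pass. The ratio of Cfb to C2 was 6.91 to 7.79 in paternal saline and 9.97 to 13.8 in paternal nicotine. Both genes share exonic bases with the gene Gm20547, which was listed at 0 in all 6 libraries.

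Cfp encodes properdin, which stabilises the alternative C3 convertase. It was at 18.9, 21.8 and 36.6 RPKM with paternal saline and at 14.8, 28.2 and 45.5 RPKM with paternal nicotine, so the groups overlapped. Its log2 fold change was 0.11, and -0.26 without paternal nicotine replicate 3. Cfd encodes factor D, the protease that activates factor B, and is known as adipsin from its high level in fat. It was at 0.794, 0.200 and 0.851 RPKM with paternal saline, from 24 to 98 reads, and at 0, 0.485 and 0 RPKM with paternal nicotine. The only paternal nicotine library with Cfd reads, 54 of them, was replicate 2, the library with pancreatic acinar markers. Whether this bears on Cfd was not tested. The 2 libraries without a read allow up to 0.0269 and 0.0239 RPKM, the level of 3 reads, which covers counting error only. Among adipocyte markers other than Car3, a carbonic anhydrase gene that liver also expresses, the sum was at most 0.141 RPKM in any library, and Plin1, Lep and Retn were at 0 in all 6. Car3 itself fell, from 532, 268 and 730 RPKM to 61, 72.2 and 47.9 RPKM (limma adjusted p = 0.0121). Its part in the Cfd values was not tested.

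Of the 8 classical pathway genes C4a rose and the other 7 did not pass. C4b (ENSMUSG00000073418, chromosome 17, 34728380 to 34743882) encodes C4, the component cleaved after C1 activation. It was at 52.2, 168 and 168 RPKM with paternal saline and at 239, 220.2 and 227 RPKM with paternal nicotine. The groups did not overlap, but paternal saline replicate 1 lay far below the other 2 libraries of its group, and the gene did not pass (log2 fold change 1.00, SE 0.46, limma adjusted p = 0.245). Without that library the log2 fold change was 0.44 (SE 0.09, limma adjusted p = 0.0707).

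C4a (ENSMUSG00000015451, chromosome 17, 34809092 to 34823464), known in mice as the sex-limited form of C4, is a neighbour of C4b at 96% identity over 5378 aligned bases. It was at 0.696, 0.738 and 0.381 RPKM with paternal saline and at 2.33, 1.31 and 1.67 RPKM with paternal nicotine. The ranges of the groups lay apart (log2 fold change 0.78, SE 0.17, limma adjusted p = 0.0438). With the reads of C4a and C4b summed, the log2 fold change was 0.98 (SE 0.43, limma adjusted p = 0.223). C4b had 22254 to 109597 reads in a library and C4a 596 to 3528, so this sum mainly restates C4b. How the reads were divided between the copies is uncertain. Leaving out any paternal saline library, or paternal nicotine replicate 2 or 3, lost the call (limma adjusted p 0.0722 to 0.115). C4a also lost it with the replicate block (limma adjusted p = 0.0774), quantile normalization (0.0627) and no filter on low values (0.113). Without paternal nicotine replicate 1 its mean was under the filter.

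C1ra and C1s1 encode the proteases C1r and C1s of the first component. C1ra was at 75.5 to 82.4 RPKM with paternal saline and 72.6 to 81.1 RPKM with paternal nicotine, and C1s1 at 32.5 to 36.4 and 30.2 to 33.7 RPKM. The log2 fold change was -0.05 (SE 0.08) for C1ra and -0.11 (SE 0.08) for C1s1, with no call. Each has a copy, C1rb at 97.9% identity and C1s2 at 96%. C1rb was at 1.30, 10.4 and 6.49 RPKM with paternal saline and at 1.20 to 1.44 RPKM with paternal nicotine. With the copies summed, the log2 fold changes were -0.11 for C1ra and -0.10 for C1s1, and neither passed. The C1ra value was 0.03 with quantile normalization, so its direction is not set.

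C1qa, C1qb and C1qc encode the chains of C1q, the recognition part of the classical pathway, and lie side by side within 18675 bases of chromosome 4. C1qa was at 75.6, 90.2 and 169 RPKM with paternal saline and at 86.4, 133 and 254 RPKM with paternal nicotine. C1qb was at 74.9, 85.2 and 147 RPKM against 71.0, 121 and 259 RPKM, and C1qc at 32.2, 35.2 and 70.1 RPKM against 21.3, 46.8 and 92.7 RPKM. In all 3 genes replicate 3 was the highest library of each group and the groups overlapped. The log2 fold changes were 0.44 (SE 0.47), 0.41 (SE 0.51) and 0.07 (SE 0.57), with limma adjusted p of 0.601, 0.654 and 0.951. Without paternal nicotine replicate 3 the C1qb value was -0.08 and the C1qc value -0.43, so their direction rests on that library. The C1qc value was also below 0 without paternal saline replicate 1 or 2.

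The ratio of C1qa to C1qb stayed between 0.981 and 1.22, while their sum with C1qc ranged from 179 to 606 RPKM. The ratio of C1qa to C1qc was 2.35, 2.56 and 2.41 in paternal saline and 4.06, 2.83 and 2.74 in paternal nicotine. The 12 Kupffer cell and macrophage markers summed to 290.3, 326 and 545 RPKM with paternal saline and 287, 538 and 895 RPKM with paternal nicotine. The C1q sum divided by this marker sum lay between 0.558 and 0.708 in all 6 libraries. Clec4f, a defining Kupffer cell marker, was at 51.9 to 66.7 RPKM with paternal saline and at 36.9, 40.4 and 101 RPKM with paternal nicotine, and C1qa divided by Clec4f ranged from 1.46 to 3.29. Of the 12 markers Marco and Cd68 alone had groups that did not overlap. Marco was at 4.55, 5.72 and 13.9 RPKM against 22.2, 74.5 and 25.5 RPKM (limma adjusted p = 0.0785), and Cd68 at 2.25, 1.72 and 2.99 RPKM against 4.14, 3.53 and 14.2 RPKM (limma adjusted p = 0.217). The part of macrophages in the C1q values was not tested.

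**Figure D2:**
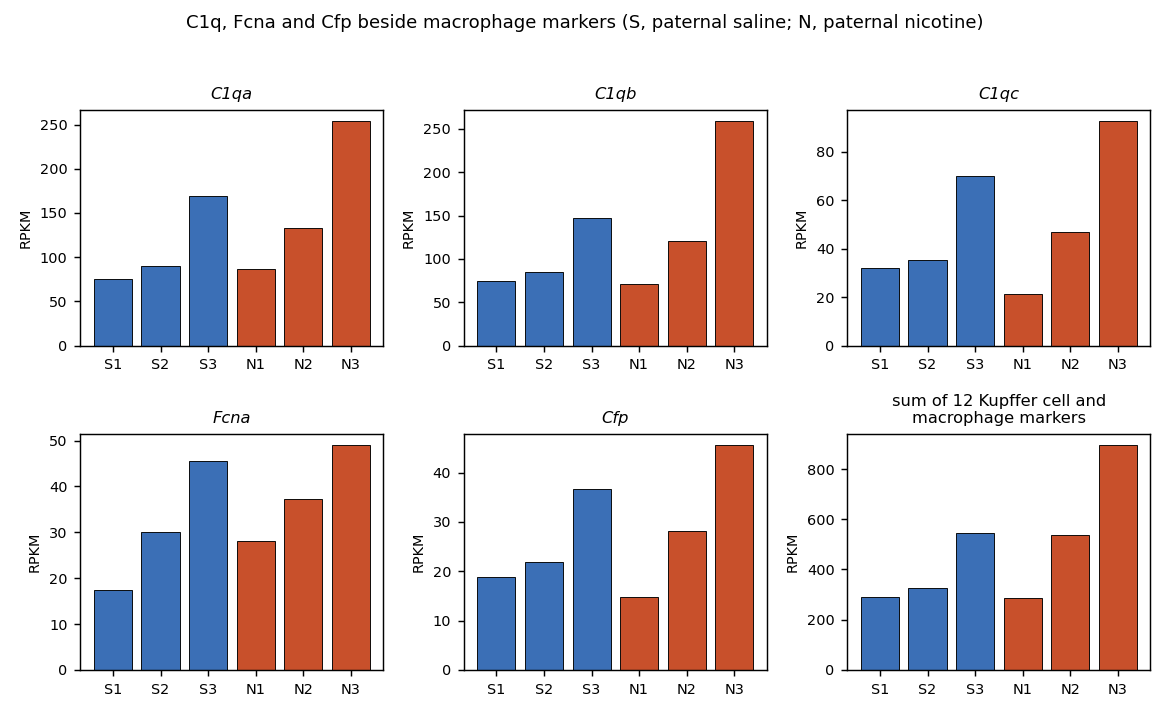
RPKM in each library of C1qa, C1qb, C1qc, Fcna and Cfp, and the sum of 12 Kupffer cell and macrophage markers. Bars are single libraries (S1 to S3 paternal saline, blue; N1 to N3 paternal nicotine, red). Within each group replicate 3 is the highest bar in all 6 panels, and the marker sum reaches 895 RPKM in paternal nicotine replicate 3.

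None of the 5 lectin pathway genes passed in limma. An unadjusted p under 0.05 was found for 2, Mbl2 and Masp1, against 2305 of all 8773 tested genes. Mbl2 and Mbl1 encode the mannose-binding lectins C and A, which recognise sugars on microbes. Mbl2 was at 306, 319 and 363 RPKM with paternal saline and at 210.5, 247 and 251 RPKM with paternal nicotine. All 3 paternal nicotine livers were below all paternal saline livers, and the gene lay just outside the threshold (log2 fold change -0.48, SE 0.11, limma adjusted p = 0.0520). It passed with rescaling by the median ratio, with adjusted p = 0.0416, and among genes averaging 5 RPKM or more, with adjusted p = 0.0344. Mbl1 was at 73.1, 36.0 and 43.0 RPKM against 50.6, 48.7 and 46.5 RPKM, and its groups overlapped. Its log2 fold change of 0.01 (SE 0.26) lay on either side of 0 as libraries were left out, from -0.20 to 0.30.

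Masp1 encodes the lectin pathway protease MASP-1 and, by other splicing, MASP-3. It was at 11 to 11.6 RPKM with paternal saline and 12.6 to 14.1 RPKM with paternal nicotine, with groups that did not overlap and a small fold change that did not pass (log2 fold change 0.23, SE 0.08, limma adjusted p = 0.128). Its transcripts share 1 value in the tables, so its products cannot be told apart. Masp2, whose protease cleaves C4 and C2, was at 25.3 to 31.5 RPKM against 21.7 to 27.7 RPKM, and it shares 1817 exonic bases with Tardbp on the opposite strand. Smaller overlaps with a gene on the opposite strand, of 76 to 576 exonic bases, touch C1s1, C2, Cd55, Fcna and Hc, and without a stated strand setting such reads cannot be told apart. Fcna, a ficolin gene known to be expressed in macrophages, was at 17.3, 30.1 and 45.4 RPKM against 28.1, 37.2 and 49.0 RPKM. Like the C1q genes it was highest in replicate 3 of each group.

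Of the 6 terminal pathway genes C8g fell and the other 5 did not pass. The 6 encode C5 (gene Hc), C6, the alpha, beta and gamma chains of C8, and C9, which assemble into the membrane attack complex. C8g (ENSMUSG00000015083, chromosome 2, 25498651 to 25501719), whose product is the lipocalin-family gamma chain, was at 109, 96.9 and 104 RPKM with paternal saline and at 65.5, 60.1 and 63.3 RPKM with paternal nicotine. The groups lay well apart (log2 fold change -0.71, SE 0.08, limma adjusted p = 0.00810), and the fall passed in all 16 alternative analyses. C8a was at 76.9 to 89.1 RPKM with paternal saline and 88.9 to 109 RPKM with paternal nicotine and did not pass. The ratio of C8a to C8g was 0.794 to 0.818 in paternal saline and 1.40 to 1.66 in paternal nicotine.

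C9, whose product forms the wall of the pore, was at 179.9, 130.1 and 138 RPKM with paternal saline and at 91.9, 93.3 and 108 RPKM with paternal nicotine. The groups did not overlap, and it did not pass (log2 fold change -0.59, SE 0.15, limma adjusted p = 0.0597), except among genes averaging 5 RPKM or more, where adjusted p was 0.0387. Hc and C6 lay on the other side. Hc was at 71.3 to 81.9 RPKM against 83.7 to 98.3 RPKM (log2 fold change 0.22, SE 0.10, limma adjusted p = 0.217). C6 was at 15.2 to 18.3 RPKM against 19.0 to 23.6 RPKM (log2 fold change 0.37, SE 0.12, limma adjusted p = 0.116). In both genes the groups did not overlap.

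C8b was at 33.5, 10.2 and 13.4 RPKM with paternal saline and at 26.3, 15.5 and 76.1 RPKM with paternal nicotine. Paternal nicotine replicate 3 was the highest library by far, and the groups overlapped. C8b did not pass (log2 fold change 0.88, SE 0.68, limma adjusted p = 0.467), and without that library its log2 fold change was 0.26. Its neighbour C8a, 11130 bases away, varied by at most 1.23-fold within a group.

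Of the 5 soluble regulator genes Serping1 and C4bp rose and the other 3 did not pass. Serping1 (ENSMUSG00000023224, chromosome 2, 84765387 to 84775444) encodes the C1 inhibitor, which blocks C1r, C1s and the MASP proteases as well as plasma kallikrein. It was at 133, 138 and 132 RPKM with paternal saline and at 255, 221 and 247 RPKM with paternal nicotine. The values were tight in each group and the groups lay apart (log2 fold change 0.83, SE 0.08, limma adjusted p = 0.00648), and the rise passed in all 16 alternative analyses. C4bp (ENSMUSG00000026405, chromosome 1, 130634773 to 130661632) encodes the C4b-binding protein, a cofactor for the breakdown of C4b. It was at 61.3, 65.1 and 54.7 RPKM with paternal saline and at 105, 109 and 94.3 RPKM with paternal nicotine, again without overlap (log2 fold change 0.76, SE 0.10, limma adjusted p = 0.0122). It lost the call without paternal saline replicate 1, paternal nicotine replicate 1 or paternal nicotine replicate 2, with adjusted p of 0.0511, 0.0523 and 0.0577.

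Cfi, whose protease product inactivates C3b and C4b, was at 191 to 223 RPKM with paternal saline and 201 to 219 RPKM with paternal nicotine, with a log2 fold change of 0.03 (SE 0.09) that was -0.01 without paternal saline replicate 3. Clu encodes clusterin, an inhibitor of the membrane attack complex that is also a stress-responsive chaperone. It was at 28.4, 29.0 and 29.6 RPKM with paternal saline and at 72.7, 207 and 62.0 RPKM with paternal nicotine. All 3 paternal nicotine livers were above all paternal saline livers, with replicate 2, the library with pancreatic acinar markers, far above the other 2. Clu did not pass with that library (log2 fold change 1.72, SE 0.45, limma adjusted p = 0.0719) and passed without it (log2 fold change 1.18, SE 0.11, limma adjusted p = 0.0241).

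Cfhr2, of the Cfhr gene family, was at 5.69, 2.19 and 2.60 RPKM with paternal saline and at 0.811, 0.743 and 1.34 RPKM with paternal nicotine. All 3 paternal nicotine livers were lower, and it did not pass (log2 fold change -1.13, SE 0.30, limma adjusted p = 0.0758). It has 3 near-identical copies in the annotation, so its reads may be shared. A copy of it over 373 bases, Gm4788, which lies outside the list and was looked at for this reason, fell from 30.1 ± 3.98 to 8.78 ± 1.19 RPKM (limma adjusted p = 0.00437).

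**Figure D3:**
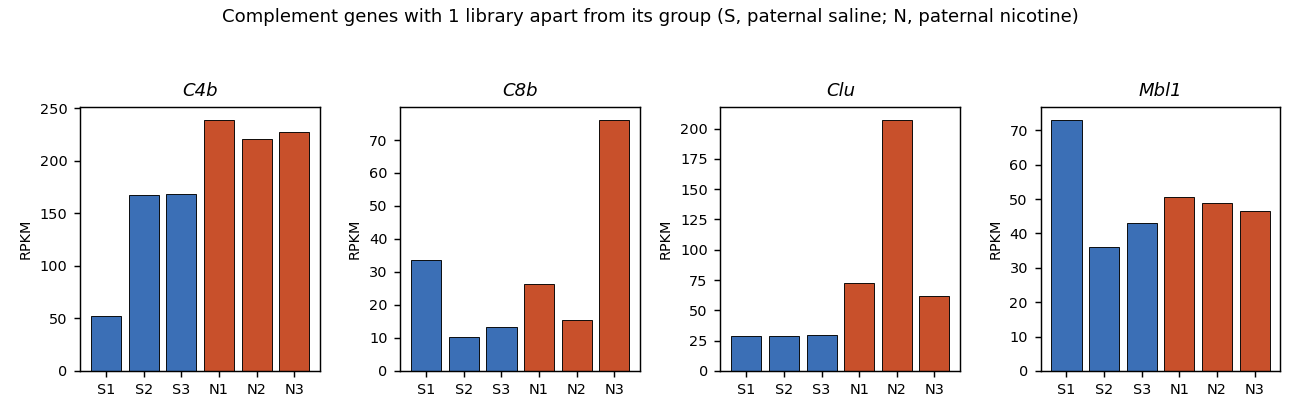
RPKM in each library of C4b, C8b, Clu and Mbl1, in which 1 library lies apart from the others of its group. Bars are single libraries (S1 to S3 paternal saline, blue; N1 to N3 paternal nicotine, red). C4b is low in S1 (52.2 RPKM), C8b is high in N3 (76.1 RPKM), Clu is high in N2 (207 RPKM) and Mbl1 is high in S1 (73.1 RPKM).

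None of the 3 membrane regulator genes passed in limma. An unadjusted p under 0.05 was found for 1, Cd59a, against 2305 of all 8773 tested genes. Cd59a, which stops C9 from forming a pore in the host cell's own membrane, was at 9.61, 7.76 and 12.5 RPKM with paternal saline and at 5.25, 6.45 and 6.83 RPKM with paternal nicotine. Again there was no overlap (log2 fold change -0.60, SE 0.18, limma adjusted p = 0.104). Cd55, which speeds the decay of the C3 convertases, was at 0.990 to 1.59 RPKM against 1.63 to 1.87 RPKM, also without overlap. Cr1l, the rodent regulator Crry, was at 1.55 to 1.97 RPKM against 1.33 to 1.72 RPKM. Cd55 and Cr1l have the near-identical copies Cd55b and Crry-ps, so their reads may be shared.

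The receptor genes for the peptides C3a and C5a are expressed mainly by myeloid cells and had few reads. C5ar1 was at 0.267, 0.551 and 0.306 RPKM with paternal saline and at 0.978, 1.44 and 3.14 RPKM with paternal nicotine. The groups did not overlap, with replicate 3 highest in paternal nicotine, and C5ar1 did not pass (log2 fold change 0.99, SE 0.28, limma adjusted p = 0.0885). The summed neutrophil markers given above were also higher in all 3 paternal nicotine livers. Among them S100a8, the highest of the list in each paternal nicotine library, rose from 2.49 ± 0.668 to 30.5 ± 10.5 RPKM (limma adjusted p = 0.00648). Retnlg, Ly6g, Elane and Cxcr2 were also higher without overlap of the groups, while S100a9, Mpo, Csf3r, Ngp and Camp overlapped. Among all tested genes 33.6% had groups without overlap. Ly6g, Elane and Cxcr2 averaged under 1 RPKM and were not tested, with at most 55, 145 and 292 reads in a library. Of the 10 neutrophil markers 3 averaged 1 RPKM or more and 1 of these passed. The part of these cells in the C5ar1 values was not tested. C3ar1 was below the tested range, at 0.576 to 1.07 RPKM with paternal saline and 0.613 to 2.03 RPKM with paternal nicotine, and its groups overlapped.

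**Figure D4:**
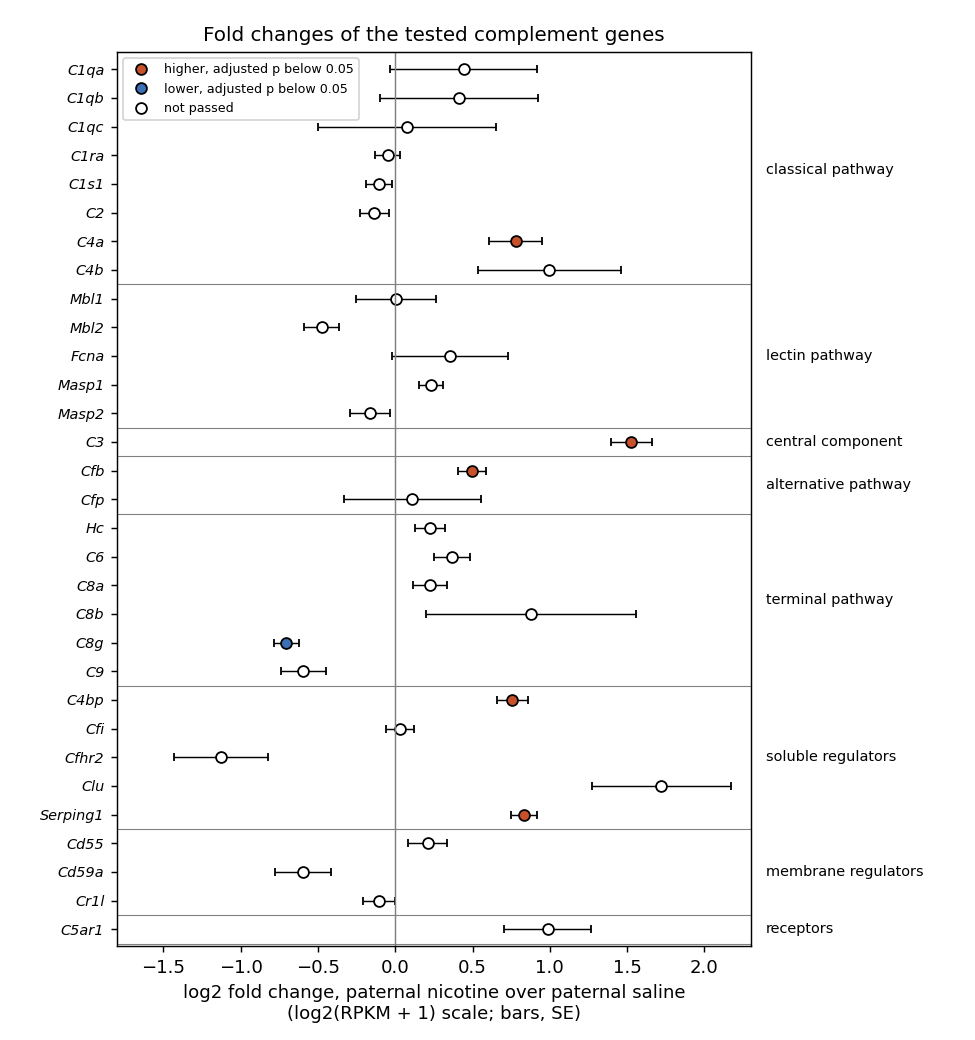
Log2 fold change of the 31 tested complement genes, paternal nicotine over paternal saline, on the log2(RPKM + 1) scale, ordered by role. Points are limma estimates and bars are standard errors. Filled red points passed upward (C3, Serping1, C4bp, Cfb and C4a), the filled blue point passed downward (C8g) and open points did not pass. The C1q genes, C8b and C4b have the widest bars.

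The spread within a group differed from gene to gene. In 11 of the 31 genes the highest library of a group was over 2-fold above its lowest, against 1673 of all 8773 tested genes. These 11 were C1qa, C1qb, C1qc, Cfp and Fcna with C5ar1, and C4b, C8b, Cfhr2, Clu and Mbl1. The median ratio of highest to lowest library over the 31 genes was 1.26 in paternal saline and 1.23 in paternal nicotine. For C3 it was 1.26 in both groups, and for Serping1 it was 1.05 and 1.15.

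Among 26 further complement genes, 14 were tested, 1 rose, none fell and 13 did not pass in limma, while 6 had an unadjusted p under 0.05. Of all 8773 tested genes 9.28% passed and 2305 had an unadjusted p under 0.05. The median log2 fold change of the 14 was -0.13. The gene that rose was Cpn1, the catalytic subunit of carboxypeptidase N, which inactivates C3a and C5a. It was at 116, 131 and 117 RPKM with paternal saline and at 184, 169.8 and 167 RPKM with paternal nicotine (log2 fold change 0.51, SE 0.09, limma adjusted p = 0.0215). Cpn1 lost the call without paternal saline replicate 1 or 3 or paternal nicotine replicate 1 or 2, with adjusted p from 0.0712 to 0.0816, with no filter (0.0619) and with the replicate block (0.0728). Besides Cpn1, the groups did not overlap in 6 of the other genes tested, 2 higher and 4 lower in paternal nicotine, against 33.6% of all tested genes.

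A list of 27 receptors and transcription factors of the cytokine, interferon and hepatocyte pathways, among them known regulators of complement genes, had 22 tested members. Of these 2 rose, 1 fell and 19 did not pass, with a median log2 fold change of 0.34, against 9.28% passing among all tested genes. The groups did not overlap in 9 of the 22, 7 higher and 2 lower with paternal nicotine, against 33.6% of all tested genes. With rescaling by the median ratio or quantile normalization 3 rose and 0 fell. With a mean of at least 5 RPKM, a pseudocount of 0.1 or 0.01, or copies summed, 2 rose and 2 fell. Cebpa, a C/EBP factor gene, lay just outside the threshold (log2 fold change -0.39, SE 0.09, limma adjusted p = 0.05002). It was at 434, 366 and 414 RPKM with paternal saline and at 306, 301 and 315 RPKM with paternal nicotine. Nfkb2, an NF-kappaB gene, also lay near the threshold without passing, in the upward direction (log2 fold change 1.12, SE 0.26, limma adjusted p = 0.0534). Its level was 1.13, 2.22 and 1.62 RPKM with paternal saline and 3.17, 4.74 and 6.69 RPKM with paternal nicotine. Socs3, a feedback inhibitor induced by STAT3, was at 5.09, 3.48 and 1.24 RPKM with paternal saline and at 26.7, 32.3 and 24.6 RPKM with paternal nicotine (log2 fold change 2.86, SE 0.37, limma adjusted p = 0.0121). Il1r1, the interleukin-1 receptor gene, was at 1.45, 1.67 and 1.38 RPKM against 19.6, 16.9 and 5.80 RPKM (log2 fold change 2.45, SE 0.42, limma adjusted p = 0.0242). Nr1h4, which encodes the bile acid receptor FXR, fell from 16.0 ± 1.38 to 11.4 ± 0.869 RPKM (log2 fold change -0.45, SE 0.10, limma adjusted p = 0.0452). In Socs3, Il1r1 and Nr1h4 alike the groups did not overlap. Socs3 lost its call only without paternal nicotine replicate 2 (adjusted p = 0.0570). Il1r1 lost it when any library but paternal nicotine replicate 3 was left out, with no filter and with the replicate block. Nr1h4 lost it when any of the 6 was left out, with both other scalings, with no filter and with the replicate block.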

How the data were processed

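Liver RNA of 6 mice was extracted with Trizol, per the labels' protocols, which name an Illumina TruSeq DNA kit, and no strand setting is stated. The authors deposited 1 table per library of RPKM values for Ensembl genes. Per the submitters' processing notes the tools were CASAVA and TopHat with build mm8; counting tool and annotation: not given in the sources used here. GENCODE M21 (GRCm38), which held 99.93% of the identifiers, supplied symbols and gene coordinates.

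Genes without a read hold a placeholder, set to 0 here. In 98.8% to 98.9% of these genes it equals 1e-08 reads over the summed length of the gene's transcripts, which gave the read totals, 61837267 to 70089315 per library. Of 25531 genes with a read, 24331 then came out as whole reads within 0.01; for 1191 more a length was searched that made them whole, which is no check. Because of this length, levels of genes that differ in transcript number are not on 1 scale, and ratios between genes are read only across libraries.

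limma 3.58.1 (R 4.3.3) with trend and robust moderation was applied to log2(RPKM + 1), a scale that understates changes of low genes, for genes averaging 1 RPKM or more. It was tested on simulated data. The named genes are all 33 members and, of 2 further lists, those that passed. Gm4788, C1rb, C7, Cebpa, Nfkb2, Marco, Cd68 and Car3 were named after their values were seen. So were the hepatocyte markers and the neutrophil markers other than S100a8. The members and lists were chosen with earlier results of these data known. Overlaps (bedtools 2.31.1) are of at least 50 exonic bases, copies (blastn 2.17.0) of at least 200 bases at 95% identity. Alternatives were another scaling, filter, pseudocount or moderation, a replicate block, summed copies, limma voom on the reads, and leaving out each library.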

Additional observations from a re-analysis of the deposited data

How the results depend on the processing

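Of the 31 tested complement genes, 25 kept their sign in every alternative run and 6, none of which passed in any, did not. The log2 fold change of C1ra was 0.031 with quantile normalization. Without 1 library, that of C1qb ranged from -0.080 to 0.847, of C1qc from -0.432 to 0.604, of Cfi from -0.009 to 0.102, of Cfp from -0.262 to 0.516 and of Mbl1 from -0.203 to 0.297. C3, Serping1 and C8g passed in all 16. The number of complement genes that rose, 5, was 3 with no filter on low values and 3 with the replicate block, and 2 to 3 without 1 library. The number that fell, 1, was 2 with rescaling by the median ratio (Mbl2 added) and 3 with a mean of at least 5 RPKM (Mbl2 and C9 added, where fewer genes are tested). Without 1 library it remained 1. Over all genes, 814 passed in the main analysis, 367 with no filter, 383 with the replicate block and 185 to 658 without 1 library. The number of further complement genes that passed, 1, was 0 with no filter, 0 with the replicate block and 0 to 2 without 1 library. The number of receptor and transcription factor genes that passed, 3, was 1 with no filter and 0 to 3 without 1 library. Where a count is lower with fewer samples or more genes tested, no other cause was tested.

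Replicate numbers are shared between the groups, but nothing in the labels pairs the animals, and the deviations of same-numbered libraries from their group means correlated at 0.007, 0.056 and 0.049 across genes, so the replicate block is given only as an alternative. Scaling moved the median log2 fold change of all genes by less than 0.1, from -0.02 to 0.01 with the median ratio. Depth limits Cfd, C3ar1, Cfhr2, Cd55 and C5ar1 most, with at most 98, 612, 985, 995 and 1254 reads in a library. C5ar1 had only 94 to 210 reads in the paternal saline libraries.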
